A study of Mus musculus with 10 samples.

Results

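Slc6a11, Abat, Aldh5a1, Maob, Gabbr1, Gabbr2, Gabrb1, Gabrg1 and Gad1 encode proteins that take up, break down, sense or make the inhibitory transmitter GABA. Each was read from the probe set that the platform annotation pairs with that symbol alone. Where a gene had several such probe sets the brightest over all arrays was taken, which applied to Abat. All 9 genes had a probe set, and all 9 lay above the filter on dim probe sets (mean log2 level 5.32), so they are 9 of the 17712 genes tested. The material was cortical cells sorted by FACS on an EGFP reporter for astrocytes, from mice 8 weeks of age, on 10 Affymetrix arrays. Of these, 5 arrays came from wild-type mice, labelled Control, and 5 from mice of genotype FMR1_KO, labelled FMR1-KO. All 10 share the EGFP reporter, whose promoter is not given in the sources used here, nor is the Fmr1 allele, nor whether an array holds 1 animal or a pool. The titles call the replicates biological. The p-values measure the spread between these arrays, and the number of arrays limits the precision.

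GABA released at inhibitory synapses is cleared by plasma membrane transporters, and in astrocytes a main carrier is GAT-3, the product of Slc6a11. Inside the cell GABA transaminase turns GABA into succinic semialdehyde, and succinic semialdehyde dehydrogenase passes the carbon on to the citric acid cycle. Astrocytes also carry GABA receptors, both the chloride channels of the GABA-A class and the G-protein-coupled GABA-B class, and can make GABA from putrescine through monoamine oxidase B. Neurons make it from glutamate with glutamic acid decarboxylase.

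Slc6a11, Gabbr2 and Gabrg1 are among 7 genes that shared their 3 highest arrays, and Gad1 had others. For these 4 genes the 250 bases before the annotated start are shown. They come from RefSeq on GRCm38.p6, whose promoter table matched 7 of the 9 symbols, and are written 5′ to 3′ on the gene's strand. Capitals mark matches, on either strand, to the GC box GGGCGG and to TTGGC, the core recognised by nuclear factor I.
Slc6a11, chr6:114130991-114131240, plus strand: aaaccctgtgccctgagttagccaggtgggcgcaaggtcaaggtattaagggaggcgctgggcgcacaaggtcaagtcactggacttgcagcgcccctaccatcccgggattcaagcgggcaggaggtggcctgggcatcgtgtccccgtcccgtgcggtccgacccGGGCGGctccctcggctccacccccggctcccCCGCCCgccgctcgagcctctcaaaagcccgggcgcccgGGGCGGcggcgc
Gabbr2, chr4:46991715-46991964, minus strand: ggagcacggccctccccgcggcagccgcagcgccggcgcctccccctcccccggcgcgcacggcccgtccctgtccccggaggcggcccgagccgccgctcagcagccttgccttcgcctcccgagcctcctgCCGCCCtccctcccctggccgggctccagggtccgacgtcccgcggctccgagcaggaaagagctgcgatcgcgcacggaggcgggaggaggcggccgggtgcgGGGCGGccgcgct
Gabrg1, chr5:70842618-70842867, minus strand: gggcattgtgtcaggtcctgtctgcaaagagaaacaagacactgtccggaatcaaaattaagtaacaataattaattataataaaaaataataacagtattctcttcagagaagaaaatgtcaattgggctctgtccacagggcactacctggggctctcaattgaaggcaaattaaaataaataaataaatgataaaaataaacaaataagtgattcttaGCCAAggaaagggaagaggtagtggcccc
Gad1, chr2:70561879-70562128, plus strand: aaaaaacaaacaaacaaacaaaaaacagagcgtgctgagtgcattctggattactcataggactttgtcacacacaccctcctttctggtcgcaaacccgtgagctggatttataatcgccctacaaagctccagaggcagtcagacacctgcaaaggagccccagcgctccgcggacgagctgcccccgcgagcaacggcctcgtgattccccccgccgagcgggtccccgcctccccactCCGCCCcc
The 3 genes shown here, of the 7 that shared their highest arrays, differed in base composition and motif matches. Slc6a11 holds 3 GC boxes and Gabbr2 holds 2, against a match in 32.7% of all 32851 promoter windows of this length, while Gabrg1 holds none and has 1 TTGGC, which 41.5% of the windows hold. GC content was 71.2% for Slc6a11, 80.8% for Gabbr2 and 35.6% for Gabrg1, with a median of 52.4% over the table. Those of the 7 that had a window but are not shown lay between these extremes. They were at 57.2% for Aldh5a1, 66% for Gabbr1, and 64.4% and 50.8% for Gabrb1. Gad1, at 58.0%, has 1 GC box. The letters searched share no base in these windows, and a match is a description of the sequence alone.

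No gene was called between the groups in limma at an adjusted p under 0.05 (0% of 17712). Before adjustment 1334 genes, 7.53%, had a p under 0.05. Fmr1 itself was not lower under the knockout label, at a log2 level of 8.22 ± 0.15 (SD, n = 5) against 8.04 ± 0.26 (SD, n = 5) in Control, so the group is called by its label. Whether this probe set covers the altered part of the gene is not known here, so it may check nothing. Female and male cells were not balanced: Xist read 10.60 and 10.98 on Control arrays 2 and 3 and at most 5.23 on the other 8, and Uty, Kdm5d and Eif2s3y showed the reverse. The arrays also differed in cell type markers. All 12 astrocyte markers had a higher mean under the FMR1-KO label, and their list mean ran from 9.69 to 10.45 on Control and from 9.93 to 10.89 on FMR1-KO arrays. The difference of their list mean was 0.42 (exact permutation p = 0.151). All 14 measured microglia markers had a lower mean under that label, with list means of 9.89 to 10.93 on Control and 9.19 to 10.62 on FMR1-KO arrays. Their difference was -0.56 (exact permutation p = 0.151). All 5 measured endothelial markers and all 4 choroid plexus markers also had a lower mean there. The endothelial list mean ran from 6.70 to 7.25 on Control and from 6.53 to 6.72 on FMR1-KO arrays, a difference of -0.34 (exact permutation p = 0.0159). For choroid plexus it ran from 9.41 to 10.45 and from 8.88 to 10.37, a difference of -0.29 (exact permutation p = 0.373). These p-values are not adjusted over the marker lists. The part of these lists in the GABA gene differences was not tested. Control array 1 and FMR1-KO arrays 1 and 2 had the lowest microglia means (9.89, 9.73 and 9.19) and the highest astrocyte means (10.45, 10.84 and 10.89). In such bulk material fewer cells of a type and less RNA per cell cannot be told apart.

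For the GABA genes as a group, 8 of 9 had a higher mean on the arrays labelled FMR1-KO and Gad1 had a lower one, where 46.8% of all genes tested were higher. The median difference of the 9 was 0.39 on the log2 scale, against -0.01 over all genes tested. These values are a description alone, since the 9 genes were chosen with earlier results of these data known. All 12 astrocyte markers were higher as well. None of the 9 passed the threshold (limma, adjusted p = 0.654 to 0.745). Before adjustment 4 of the 9 had a limma p under 0.05, beside 7.53% of all genes: Abat, Gabbr2 and Gabrb1 on the higher side and Gad1 on the lower. That count was 0 without Control array 2, without Control array 3, without FMR1-KO array 1 and without FMR1-KO array 2, and 2 without Control array 4. In those fits 1.94% to 3.11% of all genes were higher and 2.34% to 3.06% lower at that p. Without Control array 1 it was 5 higher and 1 lower, beside 6.61% and 7.09% of all genes. Without FMR1-KO array 5 it was 5 and 0, beside 6.38% and 2.82%. Without Control array 5, FMR1-KO array 3 or 4 it was 2 or 3 higher and 0 or 1 lower, beside 2.78% to 4.71% and 2.68% to 5.04% of all genes. The median difference of the 9 was 0.22 without FMR1-KO array 2. The 2 groups overlapped for every member, and they did not overlap for 0.965% of all genes.

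**Figure D1:**
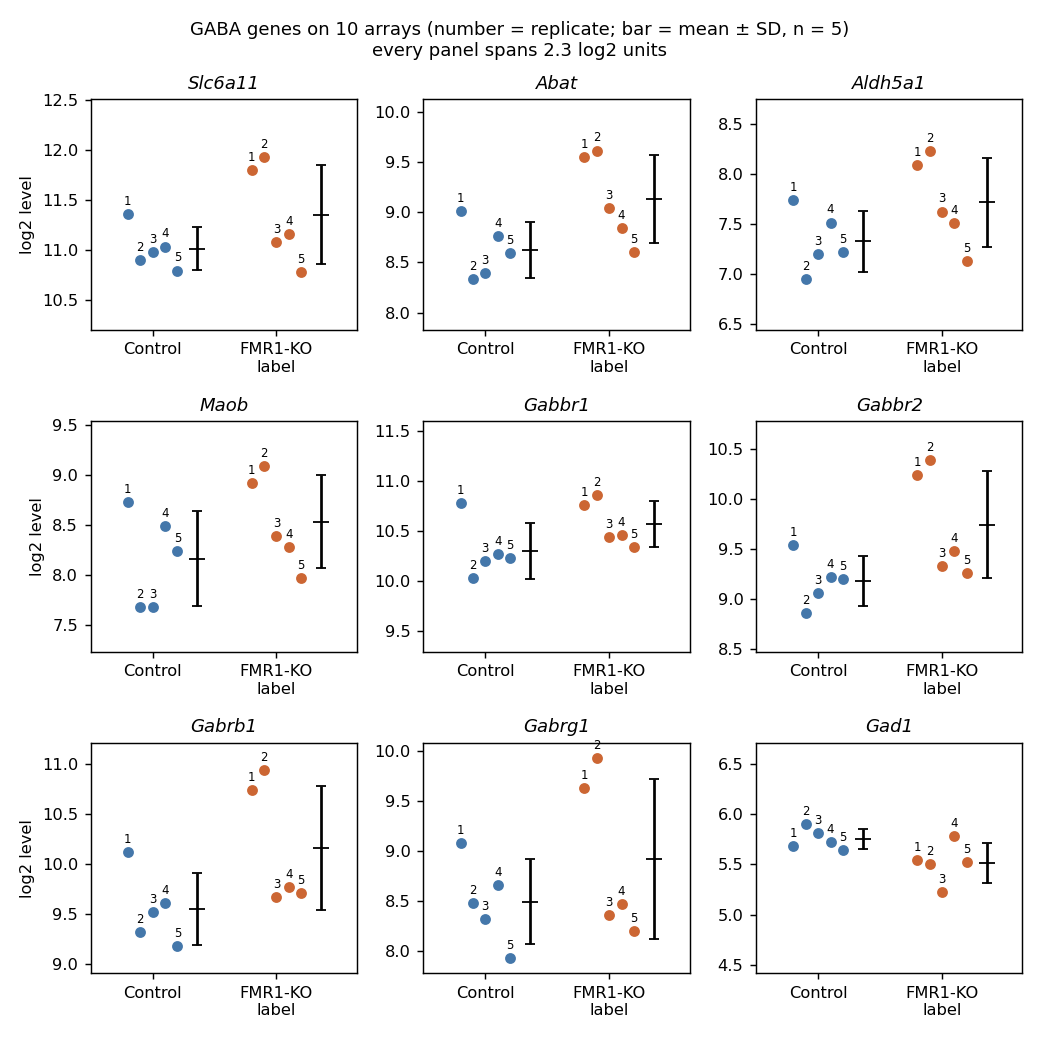
Log2 level of each of the 9 GABA genes on every array, with 5 Control arrays in blue and 5 arrays labelled FMR1-KO in orange, the replicate number at each point and the mean ± SD (n = 5) in black. FMR1-KO arrays 1 and 2 are the highest in 7 panels, Control array 1 stands above the other Control arrays in 8, and Gad1 shows neither.

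The transporter gene Slc6a11 read 11.36, 10.90, 10.98, 11.04 and 10.80 on Control arrays 1 to 5. It read 11.81, 11.93, 11.09, 11.16 and 10.78 on FMR1-KO arrays 1 to 5. FMR1-KO arrays 1 and 2 lay above every Control array, FMR1-KO array 5 was the lowest of all 10, and the rest were mixed. The means were 11.02 ± 0.21 and 11.35 ± 0.50 (SD, n = 5 each). The difference of 0.34 ± 0.21 (SE) did not pass the test (limma, adjusted p = 0.686, 95% interval -0.11 to 0.79). It was 0.19 without FMR1-KO array 2 and 0.23 without FMR1-KO array 1.

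Abat, which encodes GABA transaminase, the first step of breakdown, read 9.02, 8.34, 8.39, 8.76 and 8.60 on Control arrays 1 to 5. On FMR1-KO arrays 1 to 5 it read 9.56, 9.62, 9.04, 8.84 and 8.61. FMR1-KO arrays 1, 2 and 3 exceeded the highest Control array, and Control arrays 2, 3 and 5 lay below the lowest FMR1-KO array. The means were 8.62 ± 0.28 and 9.13 ± 0.44 (SD, n = 5 each), a difference of 0.51 ± 0.20 (SE) or 1.43-fold (limma, adjusted p = 0.654, exact permutation p = 0.0556). A second, dimmer probe set for Abat differed by 0.31 ± 0.23 (SE), in the same direction.

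Aldh5a1 encodes succinic semialdehyde dehydrogenase, the next step. It read 7.74, 6.95, 7.20, 7.51 and 7.22 on Control arrays 1 to 5, and 8.08, 8.23, 7.62, 7.51 and 7.12 on FMR1-KO arrays 1 to 5. Only FMR1-KO arrays 1 and 2 lay above all Control arrays, and FMR1-KO array 5 lay below 4 of them. The difference was 0.39 ± 0.21 (SE), with an adjusted p of 0.670 in limma. The array profiles of Abat and Aldh5a1 were the closest pair among the 9 genes, with a root mean square difference of 0.09 between their log2 levels after each was centred on its own mean.

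Maob, which encodes monoamine oxidase B and lies on the X chromosome beside Maoa, read 8.73, 7.67, 7.68, 8.49 and 8.23 on Control arrays 1 to 5, and 8.91, 9.09, 8.38, 8.28 and 7.97 on FMR1-KO arrays 1 to 5. Control arrays 2 and 3 lay below all FMR1-KO arrays, and the other 3 Control arrays lay among them. The difference of 0.37 ± 0.25 (SE; limma, adjusted p = 0.706) was 0.04 ± 0.25 (SE) without Control arrays 2 and 3. Control arrays 2 and 3 were also the 2 lowest arrays for the autosomal Abat, Gabbr1 and Gabbr2, and without them Abat was at 0.34, Aldh5a1 at 0.22 and Gabbr1 at 0.14. For Maob, leaving out Control array 2 alone gave 0.24, FMR1-KO array 2 alone 0.22. Maoa, at 7.09 and 7.06 on Control arrays 2 and 3, was not set apart there, since Control array 5 read 6.90 and FMR1-KO arrays 4 and 5 read 7.05 and 6.77.

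The GABA-B receptor works as a pair of subunits, GABA-B1, which binds GABA, and GABA-B2, which couples to the G protein. Gabbr1 read 10.78, 10.03, 10.20, 10.26 and 10.23 on Control arrays 1 to 5, and 10.75, 10.86, 10.43, 10.46 and 10.33 on FMR1-KO arrays 1 to 5. Every FMR1-KO array lay above Control arrays 2 to 5, and Control array 1 exceeded all but FMR1-KO array 2. The difference was 0.27 ± 0.15 (SE; limma, adjusted p = 0.672), and it was 0.39 without Control array 1.

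Gabbr2 read 9.54, 8.86, 9.06, 9.22 and 9.20 on Control arrays 1 to 5, and 10.24, 10.39, 9.33, 9.48 and 9.26 on FMR1-KO arrays 1 to 5. As for Gabbr1, every FMR1-KO array lay above Control arrays 2 to 5. The means were 9.18 ± 0.25 and 9.74 ± 0.53 (SD, n = 5 each), a difference of 0.56 ± 0.22 (SE) or 1.48-fold (limma, adjusted p = 0.654, exact permutation p = 0.0635). FMR1-KO arrays 1 and 2 stood 0.70 and 0.85 above Control array 1 for Gabbr2, and -0.02 and 0.09 from it for Gabbr1. The signals of the subunit genes thus did not move in parallel over these arrays. The ratio of their transcripts was not tested.

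Gabrb1 and Gabrg1 encode the beta1 and gamma1 subunits of GABA-A channels and lie in a cluster on chromosome 5 with Gabra2 and Gabra4, interrupted by Cox7b2. Gabrb1 had the largest difference of the 9 genes. It read 10.12, 9.32, 9.52, 9.61 and 9.18 on Control arrays 1 to 5, and 10.74, 10.94, 9.67, 9.77 and 9.71 on FMR1-KO arrays 1 to 5. All FMR1-KO arrays lay above Control arrays 2 to 5. The difference was 0.62 ± 0.27 (SE) or 1.53-fold, with a 95% interval of 0.03 to 1.20 and an adjusted p of 0.654 in limma. It was 0.42 without FMR1-KO array 2 and 0.76 without Control array 1.

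Gabrg1 had the widest spread over the arrays. It read 9.07, 8.47, 8.31, 8.66 and 7.92 on Control arrays 1 to 5, and 9.63, 9.92, 8.36, 8.46 and 8.20 on FMR1-KO arrays 1 to 5. FMR1-KO arrays 1 and 2 were the highest, while arrays 3 to 5 lay inside the Control range and below the Control mean of 8.49. The difference of 0.43 ± 0.34 (SE; limma, adjusted p = 0.745) was 0.17 without FMR1-KO array 2, 0.25 without FMR1-KO array 1 and 0.28 without Control array 5. The neighbours in the cluster had the same high arrays. Gabra2, for the alpha2 subunit, read 8.12, 6.98, 7.46, 7.64 and 7.41 on Control and 8.66, 9.14, 7.76, 7.64 and 7.76 on FMR1-KO arrays, a difference of 0.67 ± 0.29 (SE). Gabra4, for the alpha4 subunit, read 7.67, 6.93, 6.70, 7.36 and 6.62 on Control and 7.64, 8.34, 7.12, 6.95 and 6.74 on FMR1-KO arrays, a difference of 0.30 ± 0.29 (SE).

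Gad1, which encodes the glutamic acid decarboxylase of GABAergic neurons, was the 1 member with a lower mean under the FMR1-KO label. It read 5.69, 5.90, 5.82, 5.73 and 5.65 on Control arrays 1 to 5, and 5.55, 5.51, 5.22, 5.78 and 5.52 on FMR1-KO arrays 1 to 5. All these readings lie below the median of every array, which ran from 6.11 to 6.24, so they are low signals. FMR1-KO arrays 1, 2, 3 and 5 lay below every Control array and FMR1-KO array 4 lay among the highest Control arrays. The means were 5.76 ± 0.10 and 5.52 ± 0.20 (SD, n = 5 each), a difference of -0.24 ± 0.10 (SE; limma, adjusted p = 0.654, exact permutation p = 0.0317). It was -0.17 without FMR1-KO array 3 and -0.17 without Control arrays 2 and 3. Of 9 measured markers of GABAergic interneurons, 4 had a higher and 5 a lower mean. Their list mean ran from 5.88 to 6.37 on Control and from 5.91 to 6.06 on FMR1-KO arrays, highest on Control array 2, where Gad1 was also highest. Of these markers Gad2, Slc32a1, Pvalb, Vip and Dlx6 are low signals too. Their group means of 5.32 to 5.76 lie below the median of every array. The second decarboxylase gene, Gad2, differed by -0.06 ± 0.12 (SE), and Slc32a1, which loads GABA into vesicles, by 0.01 ± 0.10 (SE). A second, dimmer probe set for Slc32a1 differed by -0.23 ± 0.11 (SE), close to Gad1, so its probe sets disagree. The part of neuronal RNA in the Gad1 difference was not tested.

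Over the arrays, the 8 genes other than Gad1 shared their high and low arrays. Control array 1 and FMR1-KO arrays 1 and 2 held all 8 above their own means, and Control arrays 2, 3 and 5 and FMR1-KO array 5 held all 8 below. Averaged over these 8 genes, FMR1-KO array 2 stood 0.83 above the genes' own means, FMR1-KO array 1 0.67 and Control array 1 0.25. The other 7 arrays stood between -0.48, on Control array 2, and -0.05, on FMR1-KO array 4. For 7 of these 8 genes the 3 highest arrays were those 3, as for 10.0% of all genes tested, and Abat, with FMR1-KO array 3 above Control array 1, was the exception. Gad1 stood highest on Control array 2, at 0.26 above its mean, and lowest on FMR1-KO array 3, at -0.41. The 3 arrays on which the 8 genes were high are the 3 with the lowest microglia and highest astrocyte marker means.

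**Figure D2:**
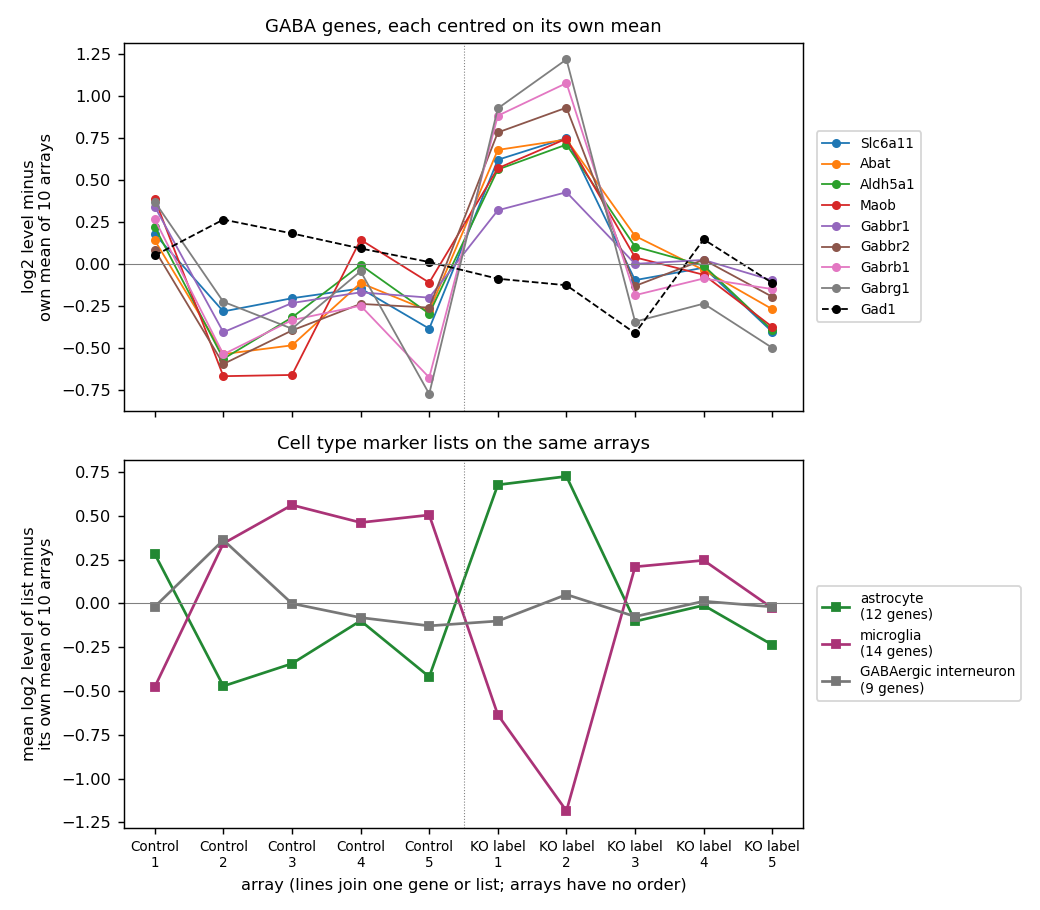
Top, log2 level of each GABA gene minus its own mean over the 10 arrays; bottom, the mean log2 level of 12 astrocyte, 14 microglia and 9 interneuron markers, centred the same way, on the same arrays. The 8 genes drawn as solid lines are highest on FMR1-KO array 2, where the microglia marker mean is lowest, and Gad1, the dashed line, is not.

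The group differences were therefore read again in subsets and with the marker means in the fit. Among the 3 arrays of low microglia signal, both FMR1-KO arrays exceeded Control array 1 for 7 of the 9 genes, as for 41.1% of all genes. The exceptions were Gabbr1, at -0.02 and 0.09, and Gad1, at -0.14 and -0.18. Among the other 7 arrays, 7 of the 9 genes had a higher mean under the FMR1-KO label, as did 44.0% of all genes, with a median difference of 0.20. Differences there were 0.31 ± 0.12 for Gabrb1, 0.31 ± 0.14 for Abat, 0.27 ± 0.12 for Gabbr2 and 0.23 ± 0.10 for Gabbr1 (SE). These 4 had an unadjusted limma p under 0.05, beside 8.90% of all genes, and an adjusted p of 0.447 to 0.555. Slc6a11 differed by 0.08 ± 0.12 (SE) and Gabrg1 by 0.00 ± 0.16 (SE) on those 7 arrays, and Gad1 by -0.26 ± 0.13 (SE).

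With the mean of the microglia markers in the fit, 5 of the 9 genes kept a positive difference, beside 48.2% of all genes, and the median was 0.04. Abat was at 0.20 ± 0.14, Gabbr2 at 0.19 ± 0.14 and Gabrb1 at 0.12 ± 0.14 (SE). Slc6a11 was at 0.00 ± 0.14, Maob at -0.01 ± 0.19 and Gabrg1 at -0.18 ± 0.18 (SE). With the mean of the astrocyte markers instead, 4 of 9 were positive, beside 46.3% of all genes. Abat and Gabbr2 were then both at 0.13 ± 0.10, Slc6a11 at -0.06 ± 0.10 and Gabrg1 at -0.23 ± 0.14 (SE). Gad1 was at -0.23 ± 0.12 in both fits. None of the 9 had an unadjusted p under 0.05 in either fit (limma; adjusted p of 0.867 or higher), where 4.44% and 6.19% of all genes did. Without Control arrays 2 and 3, 8 of 9 genes were still higher, beside 49.7% of all genes, with a median of 0.29 and no unadjusted p under 0.05 among the 9 (4.05% of all genes).

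**Figure D3:**
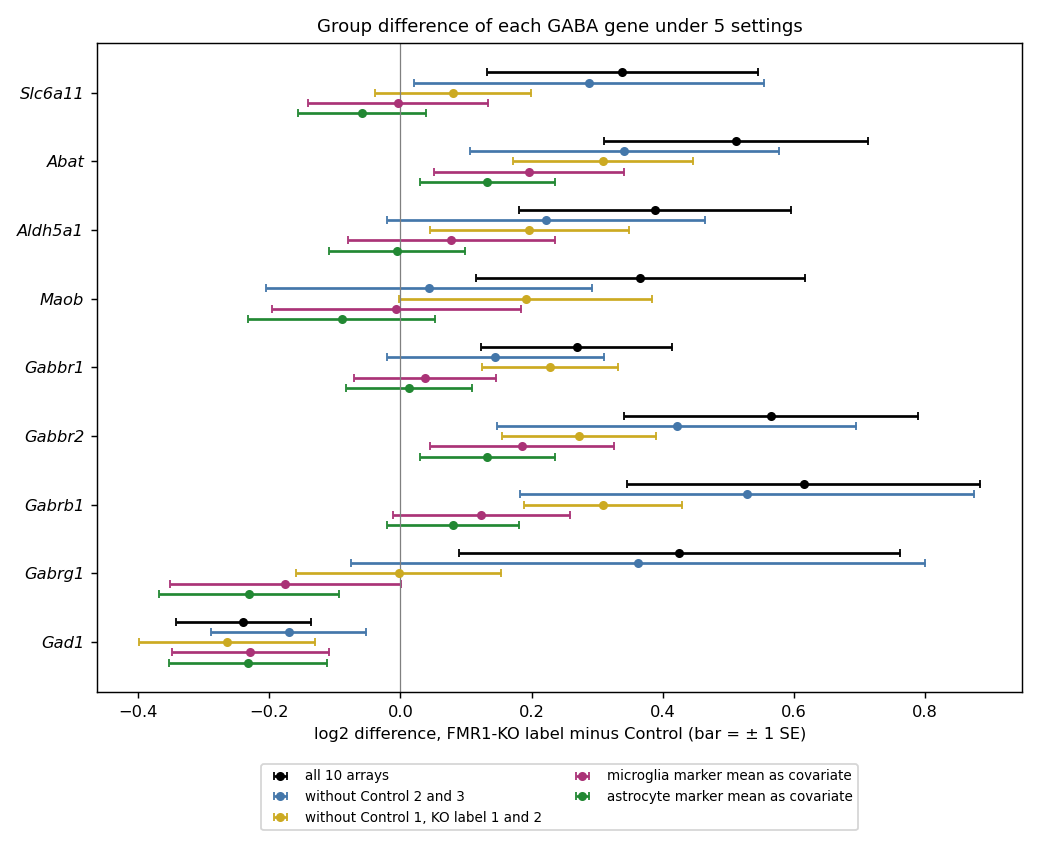
Log2 difference of each GABA gene, arrays labelled FMR1-KO minus Control, with ± 1 SE from limma, for all 10 arrays, without Control arrays 2 and 3, without the 3 arrays of low microglia signal, and with the microglia or astrocyte marker mean in the fit. Slc6a11, Maob and Gabrg1 lie at or below 0 in both fits with a marker mean, Abat, Gabbr1, Gabbr2 and Gabrb1 stay above 0 in all 5, and Gad1 stays below 0. In both fits with a marker mean, Gabbr1 and Gabrb1 lie within 1 SE of 0, and no gene shown has an unadjusted limma p under 0.05.

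Of 45 other GABA pathway genes, 36 were tested, with 21 higher and 15 lower means under the FMR1-KO label and a median difference of 0.02, against 46.8% higher and a median of -0.01 over all genes. None passed the threshold in limma, and 4, or 11.1% beside 7.53% of all genes, had an unadjusted p under 0.05: Adhfe1 and Gabra2 on the higher side, Gabarap and Kctd12 on the lower. There was 1 such gene without Control array 2, 3 or 5 or FMR1-KO array 1, and there were 2 without Control array 4 or FMR1-KO array 2. In those fits 1.94% to 3.11% of all genes were higher and 2.34% to 3.06% lower at that p. Without Control array 1 or FMR1-KO array 4 or 5 there were 3 higher and 2 lower, and without FMR1-KO array 3 there were 2 and 2. There 4.57% to 6.61% of all genes were higher and 2.82% to 7.09% lower. By role, 3 of 3 measured transporters, 4 of 7 genes of GABA synthesis, 1 of 2 further breakdown enzymes, 8 of 11 GABA-A subunits, 1 of 4 GABA-B partners, 3 of 6 anchoring genes and 1 of 3 genes of GABA release and chloride balance were higher. The transporter genes Slc6a13 and Slc6a12 differed by 0.13 ± 0.17 and 0.06 ± 0.10 (SE). These counts rest in part on low signals. Gabrp, Gabre, Gabrr3, Gabrb2, Gabra3, Gabra5 and Gabrr2 had mean levels of 5.38 to 5.87, below the lowest array median of 6.11. Of these subunit genes, Gabre and Gabra3 were lower and the rest higher. Slc6a12, Slc32a1, Gad2, Best1, Kctd8 and Kctd16 were also low, at 5.70 to 5.89. The sign of such a difference says little. Of the 45 genes, 9 were not analysed here, among them Gabra6, Gabrq, Gabrr1 and Aoc1, which were below the filter.

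On the higher side, after Gabra2, came Adhfe1, which encodes a dehydrogenase that turns gamma-hydroxybutyrate into succinic semialdehyde. It read 9.35, 8.58, 8.61, 9.06 and 8.47 on Control arrays 1 to 5, and 9.84, 10.01, 8.94, 9.11 and 9.14 on FMR1-KO arrays 1 to 5, a difference of 0.60 ± 0.23 (SE; limma, adjusted p = 0.654). FMR1-KO arrays 1 and 2 were again the highest and Control array 1 the third. Gphn, for the receptor anchor gephyrin, differed by 0.43 ± 0.23 (SE) and Gabrg3 by 0.25 ± 0.16 (SE).

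On the lower side, Gabarap, which encodes a protein that binds GABA-A receptors and helps move them to the surface, differed by -0.25 ± 0.09 (SE; limma, adjusted p = 0.654), while a second, dimmer probe set differed by -0.04 ± 0.24 (SE). Kctd12, which encodes an auxiliary subunit of GABA-B receptors, read 10.72, 11.34, 11.37, 11.54 and 11.42 on Control arrays 1 to 5, and 10.51, 9.48, 11.05, 10.98 and 11.06 on FMR1-KO arrays 1 to 5. Its lowest readings were on Control array 1 and FMR1-KO arrays 1 and 2, the 3 arrays of low microglia signal. The difference was -0.66 ± 0.28 (SE; limma, adjusted p = 0.654), and -0.40 ± 0.24 (SE) on a second, dimmer probe set. Slc12a2, a chloride importer, differed by -0.30 ± 0.23 (SE) and the delta subunit gene Gabrd by -0.12 ± 0.10 (SE).

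**Figure D4:**
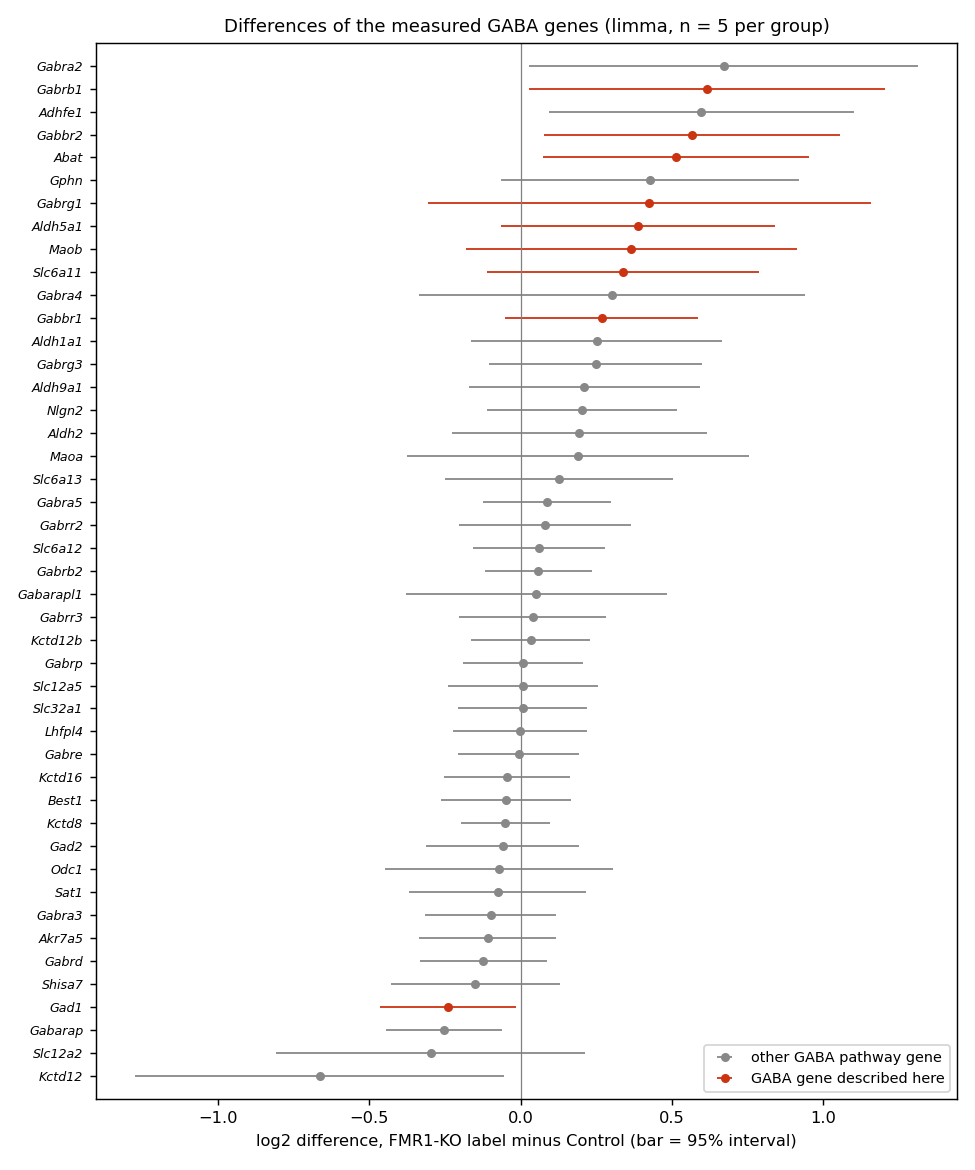
Log2 difference, arrays labelled FMR1-KO minus Control, with its 95% interval from limma (n = 5 per group), for the 9 GABA genes in red and the 36 other GABA pathway genes tested in grey. Gabra2, Adhfe1, Gphn, Gabra4 and 8 of the red genes lie at the upper end, Kctd12 at the lower end, and most other subunit genes, many of them low signals, near 0.

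The genes whose array profiles were most like those of the 9 were found by the smallest root mean square difference between centred log2 levels over the 10 arrays. For Slc6a11 these were Nlgn1, Raver2 and Sfxn1, at 0.06 to 0.07, where the median over all genes was 0.40. For Abat they were Neo1, Prelp and Cpq (0.08 to 0.09). For Aldh5a1 they were Rida, the glutamate transporter gene Slc1a3 and Tmem38a (0.08), for Maob Pfkm, Car2 and Kif21a (0.12 to 0.13), and for Gabbr1 Mapk8ip1, Agrn and Atp2a2 (0.05 to 0.06). Gabbr2 was nearest to Astn1, Clip3 and Gask1a (0.07 to 0.10), Gabrb1 to Mdga2, Slc15a2 and Cdh10 (0.07 to 0.08) and Gabrg1 to Mmd2, Fam181b and Glrb (0.09 to 0.12). For Gad1 the nearest were Lta, Fer1l4 and Tead2, at 0.09, where the median over all genes was 0.26. Among the 9 genes, Gabrb1 and Gabrg1 differed by 0.19 and Gabbr1 and Gabbr2 by 0.25. The largest value, 0.67, was between Gabrg1 and Gad1. These values grow with how far a gene swings, and all genes of an array share its material.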

How the data were processed

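The authors deposited 1 log2 signal level for each probe set and array. The scale was read from the values (4.31 to 13.86, array medians 6.11 to 6.24). The authors compared the groups in GeneSpring 13.1.1 per the series' design text. For probe-level correction, normalization and summary, the method is not given in the sources used here. GEO's platform annotation pairs 23521 of 33793 probe sets with 1 gene symbol, 1814 with several and 8458 with none, and only the first kind was used. Of these, 23328 were found by gene ID in a RefSeq table (GRCm38.p6), 0 under another symbol. The brightest probe set per gene was kept if its mean reached the 25th percentile of all probe sets (5.32).

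The test was limma 3.58.1 (R 4.3.3, lmFit then eBayes), two-sided, on all 10 arrays, with Benjamini-Hochberg adjustment over 17712 genes. The fit was run on simulated data with independent noise for each gene and array. It called 33 of 50 genes changed 1.5-fold, 47 of 50 changed 2-fold and 2 of 17512 unchanged genes. The simulation held no shifts shared by the genes of an array, so it does not show how the fit performs on these arrays. Exact permutation tests were two-sided over the 252 assignments of arrays to groups (smallest possible p 0.00794). The 9 genes, the pathway and marker lists and the arrays left out were chosen with earlier results of these data known. Named are the 9 genes, Gabra2 and Gabra4, the 4 other pathway genes per direction with the smallest p, and the 3 genes nearest to each of the 9, without predicted genes, clone names and small RNA genes. Gad2, Slc32a1, Slc6a12, Slc6a13 and Maoa were named after their values were seen. Alternatives were quantile normalization, equal medians, other filters, the mean of probe sets, trend and robust eBayes, array weights, a replicate block, each array left out, 2 subsets of arrays, and marker means as covariates.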

Additional observations from a re-analysis of the deposited data

How the results depend on the processing

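With 5 arrays per group the 95% intervals are wide, up to -0.31 to 1.16 for Gabrg1, so a p past no threshold does not show that a gene did not differ. The count of genes called was 0, and 1334 at an unadjusted p under 0.05. Leaving out each array in turn gave 0 to 1 genes called (Cnbd2 at -0.74 without Control array 5), 0 of the 9 and 0 pathway genes called, 8 of 9 higher throughout and a median of 0.22 (without FMR1-KO array 2) to 0.54 (without FMR1-KO array 5). Without Control array 1 and FMR1-KO arrays 1 and 2, 1 gene was called (Tlcd1 at 2.06), and Gabrg1 was at -0.0028. With the mean of the microglia markers in the fit 5 of 9 were higher, with Slc6a11 at -0.0035, Maob at -0.0061 and Gabrg1 at -0.18. With the astrocyte marker mean 4 of 9 were higher and the median was -0.0055, with Slc6a11 at -0.059, Aldh5a1 at -0.0055, Maob at -0.090 and Gabrg1 at -0.23. With the microglia mean and without Control arrays 2 and 3, an alternative chosen after seeing the data, 4 of 9 were higher and the median was -0.014, with Aldh5a1 at -0.014, Maob at -0.21, Gabbr1 at -0.032 and Gabrg1 at -0.13. The cause was not tested. With array weights the median was 0.23, Maob was at 0.23 and Gabrg1 at 0.22, and 2 of the 9 had an unadjusted p under 0.05 in place of 4. Over all genes 3.93% were higher and 4.25% lower at that p with array weights. Of all 322 values under alternatives, the other 302 were counted as unchanged. For differences this meant the same sign and side of the threshold, and for medians a move smaller than the spread between arrays. For counts it meant a similar size, as 7 of 9 higher in place of 8. The measure is coarse: no gene was called at first, and a median of 0.04 with the microglia mean in the fit counted as unchanged from 0.39.

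The labels number the replicates 1 to 5 in both groups. Deviations of same-numbered arrays from their group means correlated at -0.02 to 0.53 across genes, and 1 of 5 FMR1-KO arrays correlated best with its own number, so the numbers are not taken to pair the arrays. With the replicate number as a block, 0 genes were called, with 1006 higher (5.68%) and 1074 lower (6.06%) at an unadjusted p under 0.05. Among the 9 members 4 were higher and 0 lower at that p, with Gad1 at 0.060 (limma). Each number holds 1 array per group, so a block cannot change the differences. The 8 of 9 members higher and their median of 0.39 were thus fixed in advance. Gad1 is below the stricter filter, at the median of all probe sets, and has no value there.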
